A study of Mus musculus with 59 samples.

Results

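The nuclear genes of oxidative phosphorylation were examined in 59 single mouse cells. They were chosen by symbol as every gene of the expression table beginning with Nduf, Uqcr, Cox4, Cox5, Cox6, Cox7, Cox8 or Atp5, together with Sdha, Sdhb, Sdhc and Sdhd, and 1 pseudogene row (Atp5l2-ps) was left out. The rule took 89 of 20689 genes: 36 complex I subunits, 7 complex I assembly factors, 4 subunits of complex II, 8 of complex III, 16 of complex IV and 15 of complex V, Ndufa4, and the factors Atp5s and Atp5sl. The rule itself uses names and no measured value, although it was set with earlier results of these data known. The cells belong to a study of the chemical conversion of astrocytes into neurons in the living mouse brain, and the labels call all of them chemical-induced neurons with an age label of 12 weeks. RNA was taken from each cell through a patch-clamp pipette in vivo, a procedure that draws the cell's contents into a glass electrode, and was sequenced on a HiSeq4000. The labels name no untreated cells, genotype, compound or animal, so the 59 cells form 1 group, which was treated as 1 sample. No test between conditions was possible, and no p-value is given. Intervals beside shares of cells are 95% exact (Clopper-Pearson) ones and reflect the counting of cells alone.

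Oxidative phosphorylation takes place in the inner mitochondrial membrane. Complex I (NADH dehydrogenase) and complex II (succinate dehydrogenase) pass electrons to ubiquinone, complex III passes them to cytochrome c and complex IV (cytochrome c oxidase) to oxygen, and complex V (ATP synthase) uses the resulting proton gradient to make ATP. Complexes I, III, IV and V combine subunits encoded in mitochondrial DNA with nuclear-encoded ones, whereas complex II is wholly nuclear, and neurons draw most of their ATP from this pathway.

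Promoters are shown to let the ubiquitous subunits be set beside isoforms that other tissues use. RefSeq promoters on GRCm38.p6, each running from 250 bases before to 50 bases after an annotated start, were matched to 75 of the 89 genes through 81 promoters. The 6 printed are those of Cox6a1 (chr5:115348909-115349208, minus strand), Ndufs6 (chr13:73328433-73328732, minus), Cox8a (chr19:7217567-7217866, minus), Cox8b (chr7:140900397-140900696, minus), Cox7a2 (chr9:79759804-79760103, minus) and Cox7a1 (chr7:30183921-30184220, plus), written 5′ to 3′ on the gene's strand. Capitals mark exact matches, on either strand, to the letters of 3 motifs named after factors known to act at respiratory chain genes: NRF1 (GCATGCG), ETS (CCGGAAG) and YY1 (ATGGCGG). Overlapping matches to the same motif on opposite strands were counted once.
Cox6a1: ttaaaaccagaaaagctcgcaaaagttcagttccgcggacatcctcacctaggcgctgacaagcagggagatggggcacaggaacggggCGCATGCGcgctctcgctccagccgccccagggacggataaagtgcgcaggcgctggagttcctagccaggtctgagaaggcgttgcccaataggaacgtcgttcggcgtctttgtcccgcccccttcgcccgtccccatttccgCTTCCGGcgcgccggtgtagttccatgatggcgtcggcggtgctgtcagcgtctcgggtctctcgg
Ndufs6: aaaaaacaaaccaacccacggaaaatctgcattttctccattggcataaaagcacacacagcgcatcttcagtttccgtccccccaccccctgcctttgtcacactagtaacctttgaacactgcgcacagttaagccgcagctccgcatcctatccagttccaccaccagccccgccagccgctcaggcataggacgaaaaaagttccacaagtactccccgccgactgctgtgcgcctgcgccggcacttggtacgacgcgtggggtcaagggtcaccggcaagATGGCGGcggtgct
Cox8a: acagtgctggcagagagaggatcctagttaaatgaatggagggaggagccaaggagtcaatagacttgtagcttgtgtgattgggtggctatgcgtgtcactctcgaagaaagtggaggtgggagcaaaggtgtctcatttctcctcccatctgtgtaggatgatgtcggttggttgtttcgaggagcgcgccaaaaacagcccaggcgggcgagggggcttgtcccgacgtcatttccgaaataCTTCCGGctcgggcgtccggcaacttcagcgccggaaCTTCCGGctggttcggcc
Cox8b: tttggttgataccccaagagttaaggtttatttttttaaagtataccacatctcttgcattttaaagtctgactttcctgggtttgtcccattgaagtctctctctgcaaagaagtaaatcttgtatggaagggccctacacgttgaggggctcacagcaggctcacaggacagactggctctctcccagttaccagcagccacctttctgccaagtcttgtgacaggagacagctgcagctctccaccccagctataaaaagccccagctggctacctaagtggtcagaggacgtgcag
Cox7a2: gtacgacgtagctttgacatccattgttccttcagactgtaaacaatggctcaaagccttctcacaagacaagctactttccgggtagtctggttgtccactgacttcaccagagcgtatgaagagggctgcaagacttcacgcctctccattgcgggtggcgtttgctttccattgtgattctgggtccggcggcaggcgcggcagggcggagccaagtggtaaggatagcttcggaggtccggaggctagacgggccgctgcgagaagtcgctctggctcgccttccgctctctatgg
Cox7a1: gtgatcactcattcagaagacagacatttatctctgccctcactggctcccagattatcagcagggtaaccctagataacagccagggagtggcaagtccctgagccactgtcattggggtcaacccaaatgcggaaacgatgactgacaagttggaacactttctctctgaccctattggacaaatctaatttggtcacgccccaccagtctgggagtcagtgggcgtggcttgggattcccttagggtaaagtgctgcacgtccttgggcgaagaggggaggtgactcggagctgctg
Cox6a1 carried 1 NRF1 and 1 ETS match, Ndufs6 1 YY1 match and Cox8a 2 ETS matches, and the other 3 promoters carried none. The CpG dinucleotides numbered 32 in Cox6a1, 20 in Ndufs6, 19 in Cox8a and 20 in Cox7a2, against 2 in Cox8b and 7 in Cox7a1. Over the genes of the respiratory chain, the NRF1 letters were in 13 of 81 promoters (16.0%), those of ETS in 17 (21.0%) and those of YY1 in 14 (17.3%). Of all 32851 RefSeq promoters of the same length, 3.58% held the NRF1, 8.86% the ETS and 4.05% the YY1 letters. The NRF1 letters were in promoters of complexes I to V, among them Atp5g2, Atp5k, Cox6a1, Ndufa6, Ndufa8, Ndufa11, Sdhb, Uqcr11 and Uqcrc1, and those of YY1 were in promoters of genes such as Atp5b, Ndufa1, Ndufa9, Ndufs4, Ndufs6 and Ndufs7. At least 1 of the motifs was in 37 promoters (45.7%), against 14.8% of all. The median number of CpG dinucleotides was 20 in these promoters and 7 in all, and the part of CpG content in the motif shares was not tested. A match describes letters only, and binding was not measured.

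The cells differed widely in yield. Between 475 and 10310 genes reached an FPKM of 1 (fragments scaled to exon length and to the cell's total), the threshold used here for detection, and the depth recovered from the values ran from 29043 to 2950400 fragments per cell. For 1 kb of exon, 1 fragment was enough to pass this threshold in 31 cells. Markers of several cell types were found in these cells: of the neuronal, oligodendrocyte, microglia and astrocyte marker lists, the neuronal list had the highest mean in 21 cells, the oligodendrocyte list in 28, the microglia list in 8 and the astrocyte list in 2. The oligodendrocyte gene Mbp was detected in 55 of the 59 cells and the neuronal gene Snap25 in 54, so the label of neurons does not describe the strongest markers of most cells. These classes are ranges of a score and not cell types, and in 5 cells the leading list was within 0.5 (mean log2) of the next.

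Most respiratory chain genes were detected in most cells. Of the 89 genes, 76 (85.4%) reached an FPKM of 1 in at least 50% of the cells, where 11.7% of all 20689 genes did, and the median gene of the set was detected in 81.4% of the cells. These 76 were 75 of the 80 subunits, Ndufa4 included, and the complex I assembly factor Ndufaf2. The 13 genes with a median FPKM of 0 were the other 6 complex I assembly factors, Atp5s, Atp5sl and the complex IV isoforms Cox4i2, Cox6a2, Cox6b2, Cox7a1 and Cox8b, while 83.9% of all genes had such a median. A median FPKM of 100 or more was reached by 24 of the 89 genes, against 1.07% of all genes. Each of the 89 genes was at 0 in at least 3 cells. By recovered fragments, 74 of the 89 genes had a median of 10 or more per cell, so detection of most of them did not rest on single fragments.

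**Figure D1:**
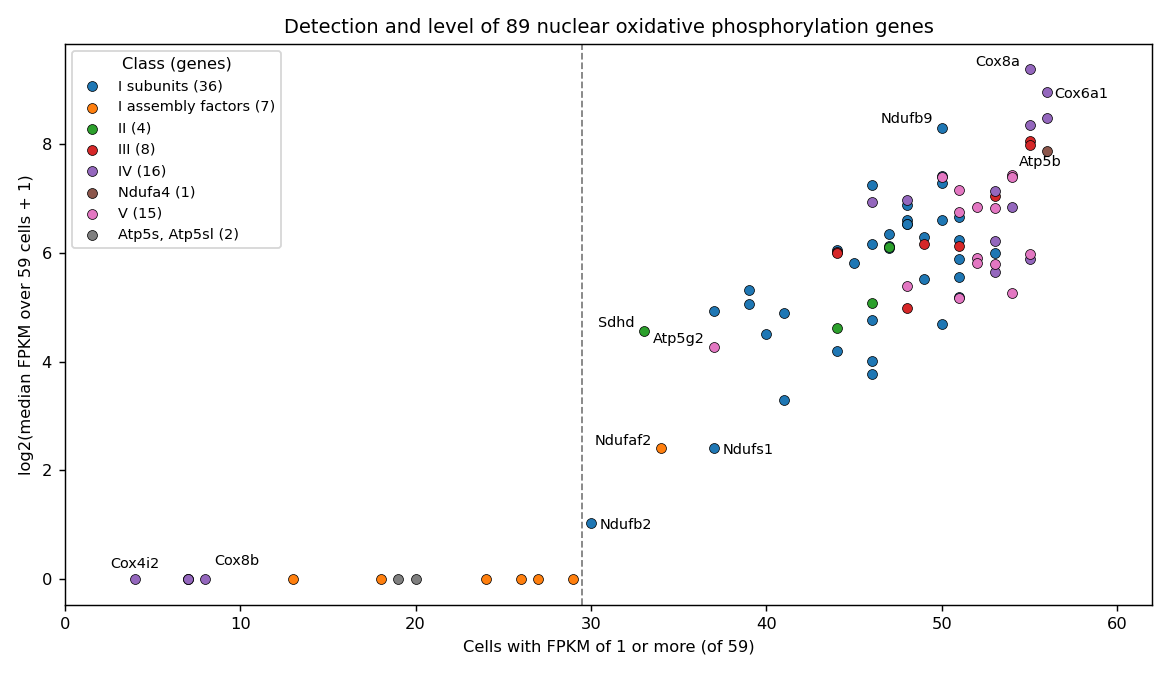
Number of cells (of 59) in which each of the 89 genes reached an FPKM of 1, on the x axis, against log2(median FPKM + 1) over the 59 cells on the y axis, with 1 point per gene coloured by class and a dashed line at 50% of the cells. All 36 complex I subunits lie right of the line, the 5 complex IV isoforms and the other assembly factors lie at a median of 0, and Cox8a and Cox6a1 are highest.

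Levels of different genes depend on the exon length by which the authors divided, and for this gene set that length was often much greater than the transcript. The length was recovered for all 89 genes as one that turns at least 85% of a gene's low values (80% where it is the annotated length) into whole fragments. It equalled the merged exon length of GENCODE M21 for 54 genes. For Uqcrc1 the values were whole only at 8270 bases, which is 2 times its annotated exon length, and the reason was not tested. The ratio of the recovered length to the principal transcript had a median of 1.34 and ran from 0.817 in Cox6b1 to 12.4 in Ndufb2, and it exceeded 3 in 18 genes. Dividing by the principal transcript instead moved 37 genes by at least 10 places in the order of medians. The deposited and the rescaled medians kept a rank correlation of 0.834 across the 89 genes, a description in which the genes share the cells and their depth. In the following, FPKM are the deposited values, and rescaled values are named as such.

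**Figure D2:**
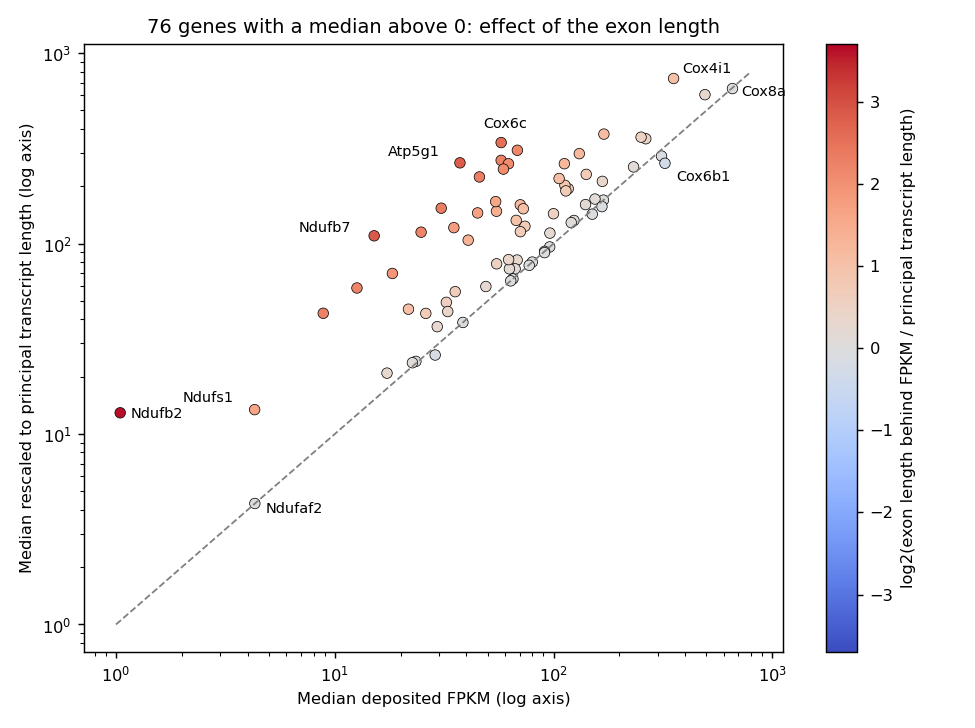
Median FPKM over 59 cells as deposited (x, log axis) against the median after rescaling to the principal transcript length (y, log axis), for the 76 genes with a median above 0, coloured by the log2 ratio of the 2 lengths, with the line of equal values dashed. Ndufb2, Ndufb7, Atp5g1 and Cox6c lie farthest above the line, and Cox6b1 lies below it.

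Each of the 36 complex I subunits was detected in 30 to 53 cells. The highest was Ndufb9, an accessory subunit of the membrane arm (chr15:58933756-58939488 on GRCm38), with a median of 312 FPKM, a highest value of 1348 and detection in 50 cells. Ndufa2 followed with a median of 169 FPKM and a highest value of 1979, Ndufs6 with 155 and 3760, and Ndufa6 with 150 and 765. The 3 lowest were Ndufab1, the mitochondrial acyl carrier protein, at a median of 8.86 FPKM, Ndufs1, the largest core subunit, at 4.30, and the accessory subunit Ndufb2 at 1.05. These low levels were in part a matter of length. Rescaled to the principal transcript, Ndufab1 had a median of 43.1, Ndufs1 of 13.4 and Ndufb2 of 12.9, and Ndufb2 and Ndufs1 were still the lowest of the subunits with a median above 0.

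The nuclear core subunits, which carry the flavin and the iron-sulphur clusters or bind ubiquinone, covered a wide range. Ndufs8 had a median of 91.0 FPKM (48 cells), Ndufs7 of 70.5 (46 cells) and Ndufv2 of 62.9 (53 cells). Ndufv1, which binds NADH, had a median of 32.4 FPKM in 39 cells, Ndufs3 of 21.7 in 40 cells and Ndufs1 of 4.30 in 37 cells. Within a cell, the mean log2(FPKM + 1) of the 29 accessory subunits exceeded that of the 7 core subunits by a median of 0.34, and was higher in 36 of 59 cells (61.0%, interval 47.4 to 73.5%), so the order of these groups varied between cells. The subunits encoded near or within other genes need care. In Ndufb6, 39.0% of the exon bases are shared with another annotated gene, and whether the counting used strand is not given in the sources used here.

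Complex I assembly factors, which help to build the complex and are not part of it, were much less often detected than its subunits. Ndufaf2 was found in 34 cells at a median of 4.31 FPKM, but 65.6% of its exon bases are shared with another gene. Ndufaf5 was found in 29 cells, Ndufaf7 in 27, Ndufaf3 in 26, Ndufaf4 in 24, Ndufaf1 in 18 and Ndufaf6 in 13, all with a median of 0. Single cells were nevertheless high, with 769 FPKM of Ndufaf1 in cell 54 and 367 of Ndufaf4 in cell 44. The mean log2 level of the complex I subunits exceeded that of the 7 assembly factors in all 59 cells, by a median of 2.86 (lowest 0.39, highest 5.13).

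Complex II, the smallest complex by subunit number, which also serves the citric acid cycle, had no detected subunit in some cells, unlike the others. Sdhb, the iron-sulphur subunit, ranged from 0 to 1503 FPKM with a median of 67.5 and was detected in 47 cells. Sdha, the flavoprotein subunit, ranged from 0 to 257 with a median of 32.8 (46 cells). Sdhc and Sdhd anchor the enzyme in the membrane. Sdhc had a median of 23.5 FPKM (44 cells, highest 275), and Sdhd one of 22.7 (33 cells, highest 309). Sdhd was at 0 in 24 cells, yet its upper quartile of 112 FPKM was above that of Sdhc, 55.0, so the gene was more uneven across cells than its partner. All 4 subunits were detected together in 25 cells (42.4%, interval 29.6 to 55.9%) and none of them in 4 cells (6.78%, interval 1.88 to 16.5%). No cell lacked every subunit of complex I, III, IV or V (0 of 59, interval 0 to 6.06%). These complexes have 8 to 36 genes in this count and complex II has 4, so the counts are not alike. The median detection per gene was 76.3% of cells in complex II, 79.7% in complex I and 84.7% or more in the others. The part of gene number in the contrast was not tested.

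In complex III the small subunits were the highest by FPKM. Uqcr10 had a median of 264 FPKM (highest 2371) and Uqcr11 of 251 (highest 1207), both in 55 cells, followed by the hinge protein gene Uqcrh at 131 (53 cells) and Uqcrb at 70.6 (49 cells). The lowest were the Rieske iron-sulphur protein Uqcrfs1 at 63.7 FPKM, with Uqcrc2 at 62.3, both in 44 cells, and Uqcrc1 at 30.7 in 48 cells, the last 2 encoding the core proteins. Uqcrq stood at a median of 68.4 FPKM as deposited and at 309 when rescaled, since its recovered length was 4.52 times the principal transcript. Uqcrb has near-identical processed pseudogenes, of which 3 are in the table and were detected in 3 to 5 cells, so a part of its fragments could be assigned elsewhere.

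Complex IV held the most abundant transcripts of the pathway and also its rarest. Cox8a (chr19:7215153-7217616), a small subunit of the membrane part, ranged from 0 to 4376 FPKM with a median of 658, rank 23 among all 20689 genes. Cox6a1 (chr5:115345642-115348981) ranged from 0 to 2631 with a median of 492, Cox4i1 (chr8:120668222-120674207), the largest nuclear subunit, from 0 to 1213 with a median of 354, and Cox6b1 (chr7:30616861-30626151) from 0 to 2872 with a median of 323. Cox6a1 and Cox4i1 were detected in 56 cells, and Cox8a and Cox6b1 in 55. In the rescaled order Cox4i1 came first with 736, ahead of Cox8a with 652 and Cox6a1 with 605. The rest of the ubiquitous subunits ran from 49.1 FPKM in Cox7b to 140 in Cox7a2, and each was detected in 46 to 55 cells. All 11 genes outside the restricted isoforms, classed by symbol and with Cox7a2l among them, were detected together in 38 cells (64.4%, interval 50.9 to 76.4%).

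The 5 tissue-restricted isoforms of complex IV were found in few cells, at shares around or below the median of 11.9% over all 20689 genes. Cox6a2, Cox7a1 and Cox8b are the isoforms of heart and skeletal muscle, Cox4i2 is known from lung and Cox6b2 from testis. Cox8b was detected in 8 cells (13.6%, interval 6.04 to 25.0%), Cox6a2, Cox6b2 and Cox7a1 in 7 each (11.9%, interval 4.91 to 22.9%), and Cox4i2 in 4 (6.78%, interval 1.88 to 16.5%). In every cell in which at least 1 isoform of a pair was detected, the ubiquitous isoform was the higher, which was 56 cells for Cox4i1 and Cox6a1, 55 for Cox6b1 and Cox8a and 53 for Cox7a2. No cell held a restricted isoform without its partner. Across the pairs 38 cells had none of the 5, 12 had 1, 6 had 2 and 3 had 3.

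The restricted isoforms nonetheless reached sizeable shares in single cells. Cox8b made up at most 35.5% of the sum of Cox8a and Cox8b, in cell 52, where it had 140 FPKM from 122 fragments and Cox8a 253. Cox6a2 reached 31.4% of the sum with Cox6a1 in cell 28, where its 147 FPKM came from only 9 fragments, 27.8% in cell 24 (85.7 FPKM from 127 fragments) and 19.0% in cell 15 (129 FPKM from 162 fragments). The highest shares of the other isoforms were 17.9% for Cox7a1, 10.3% for Cox4i2 and 7.65% for Cox6b2. Several detections rested on few fragments: the lowest were 1 fragment for Cox7a1 and for Cox8b, 2 for Cox6a2 and 4 for Cox4i2.

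Cox6a2 is also known in brain from parvalbumin interneurons, and its cells were set beside those with Pvalb. Pvalb was detected in 30 cells and Cox6a2 in 7, and 3 cells had both, 4 Cox6a2 alone, 27 Pvalb alone and 25 neither. In the 3 shared cells Pvalb stood at 2.56, 7.05 and 8.91 FPKM, far below its level of 2289 FPKM in cell 7, where Cox6a2 was not detected. By contrast, 4 of the 7 cells with Cox6a2 (cells 15, 21, 24 and 28) were among the 8 in which the microglia list led, with a microglia mean log2 of 9.11 to 9.83, and cells 26, 33 and 61 were not. This comparison was not among those fixed beforehand. In the same 8 cells, Cox8b was detected in 3, Cox7a1 in 2, and Cox6b2 and Cox4i2 in 1 each. Their median depth was 1665490 fragments, against 804772 in the neuronal and 926049 in the oligodendrocyte class. The part of microglial RNA and of depth in the Cox6a2 signal was not tested. On chromosome 7, Cox6a2 shares 10.3% of its exon bases with the integrin gene Itgad, and its neighbourhood includes a further integrin gene, Itgax. Leukocytes express both integrin genes. Itgad was detected in 1 and Itgax in 3 of the 7 cells with Cox6a2. All 7 cells with Cox7a1 also had Pvalb, at 43.3 to 2289 FPKM, a pair singled out after its values had been seen, and these 7 cells had 3867 to 10310 detected genes.

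**Figure D3:**
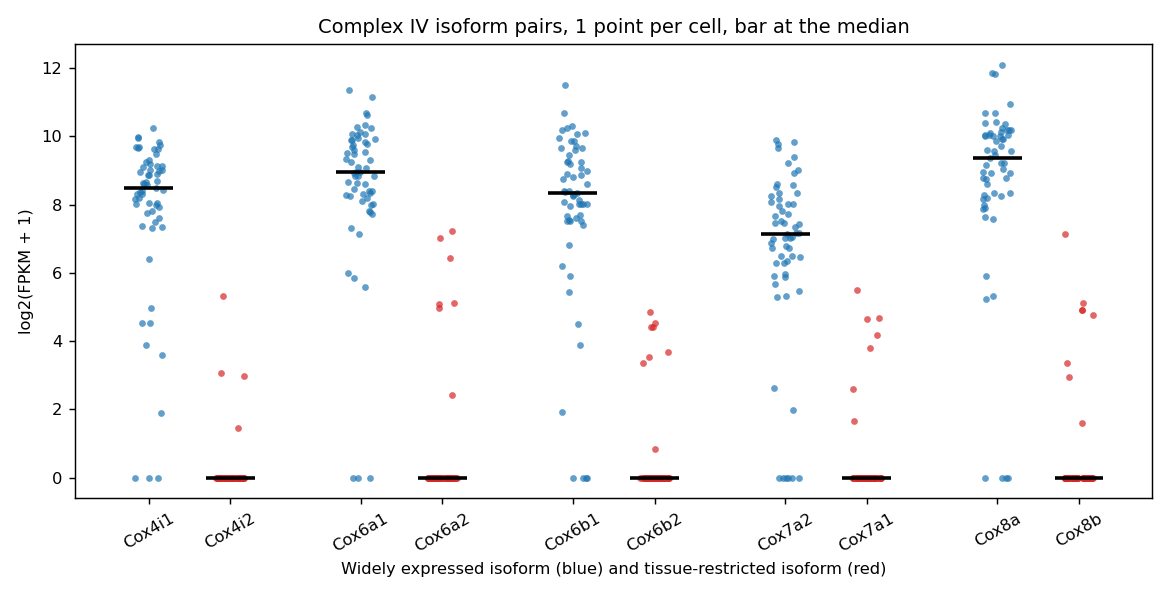
log2(FPKM + 1) of the 5 ubiquitous complex IV isoforms (blue) and their tissue-restricted partners (red), with 1 point for each of 59 cells and a bar at the median. The restricted isoforms have a median of 0 and at most 8 cells above an FPKM of 1, and the median of Cox8a lies at 658 FPKM.

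In complex V, which makes ATP, the catalytic core genes Atp5b and Atp5a1 had the highest medians as deposited, though Atp5l came close. Atp5b, the catalytic beta subunit, ranged from 0 to 1108 FPKM with a median of 170, and Atp5a1, the alpha subunit, from 0 to 836 with a median of 167, both in 54 cells. Atp5l, a small membrane subunit, followed with 166 and the gamma subunit Atp5c1 of the central stalk with 141. The lowest were Atp5g1 with 37.4 FPKM, Atp5j2 with 35.0 and Atp5g2 with 18.3. All 15 genes were detected together in 31 cells (52.5%, interval 39.1 to 65.7%). Rescaled, Atp5b led with a median of 376, followed by Atp5g1 with 266. Atp5a1, with a rescaled median of 212, fell below Atp5g1, Atp5h, Atp5j, Atp5e, Atp5c1 and Atp5d.

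Atp5g1, Atp5g2 and Atp5g3 encode the same mature c subunit of the rotor ring with different import sequences. As deposited, Atp5g3 was the highest with a median of 54.4 FPKM, and it exceeded both others in 36 of the 59 cells, Atp5g1 in 13 and Atp5g2 in 10. After rescaling, Atp5g1 led with a median of 266, against 166 for Atp5g3 and 69.7 for Atp5g2, and was the highest in 34 cells, Atp5g3 in 18 and Atp5g2 in 7. The order of Atp5g1 and Atp5g3 thus depended on the length, which was recovered as 4912 bases for Atp5g1, 7.11 times its principal transcript, and 2181 for Atp5g3, 3.05 times. Atp5g2 was lowest on both scales. A processed pseudogene of Atp5g1, Gm10039, is 99.8% identical over 411 bases and was itself detected in 39 cells at a median of 14.7 FPKM, so fragments of the pair could be divided between them. Of the 89 genes, 23 have such a near-identical stretch (at least 95% over 200 bases) in another annotated gene.

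Ndufa4, named for complex I but now regarded as a subunit of complex IV, had a median of 232 FPKM and a highest value of 2274 over the cells, 56 of which reached the threshold. Atp5s and Atp5sl share the prefix of the ATP synthase but are not among its subunits. Atp5s was detected in 20 cells and Atp5sl in 19, with highest values of 128 and 91.7 FPKM.

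Compared within each cell, the complexes differed in level, and the place of complex IV turned on its restricted isoforms. With all 16 genes, the mean log2(FPKM + 1) of complex IV differed from that of complex I by a median of -0.03 and was higher in 28 of 59 cells (47.5%, interval 34.3 to 60.9%). Without the 5 restricted isoforms, which were left out after their values had been seen, complex IV was higher than complex I in all 59 cells, by a median of 2.01 (lowest 0.13, highest 4.30). The same 11 genes were above complex V in 57 cells, by a median of 1.13, and above complex III in 52 cells, by 0.95. Complex V was above complex I in 54 cells (median difference 0.76, SD 0.71) and complex III in 51 (0.88, SD 0.95). Complexes III and V were close, with III higher in 41 cells by a median of 0.22 and an SD of 0.98. Complex I was above complex II in 38 cells, by a median of 0.38, with an SD over cells of 1.48. On the rescaled values, the difference of complex V from complex I was 1.33. By another measure, the median of the gene medians, the lead of complex IV over complexes III and V depended on the length. As deposited, the median of the gene medians was 124 FPKM in the 11 genes, 69.5 in complex III and 62.3 in complex V. Rescaled, it was 202, 225 and 212. The complex III value lies between Uqcrh (297) and Uqcrc1 (153), and the recovered length of Uqcrc1 was 2 times its annotated exon length. Within-cell differences of complex IV on the rescaled values are not given here.

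The cells differed strongly in the amount of nuclear-encoded respiratory chain RNA detected. Between 13 and 87 of the 89 genes were detected per cell, with a median of 74, and 35 cells had at least 70. All 75 subunits outside the restricted isoforms were detected in 9 cells. The mean log2(FPKM + 1) of the 80 subunits ran from 1.17 in cell 27 to 7.21 in cell 9, with a median of 5.30. Cell 27 had 475 detected genes and cell 9 had 7837, and over the 59 cells the number of set members detected followed the number of all genes detected (Spearman rho 0.949). The subunits together held a median of 2.14% of the summed FPKM of a cell, from 0.296% in cell 6 to 6.89% in cell 44. This share showed almost no relation to the number of genes detected (rho 0.092). Such correlations across cells are descriptions of points that come from single libraries of unequal depth. Fewer transcripts in a cell and less RNA recovered from it cannot be told apart.

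**Figure D4:**
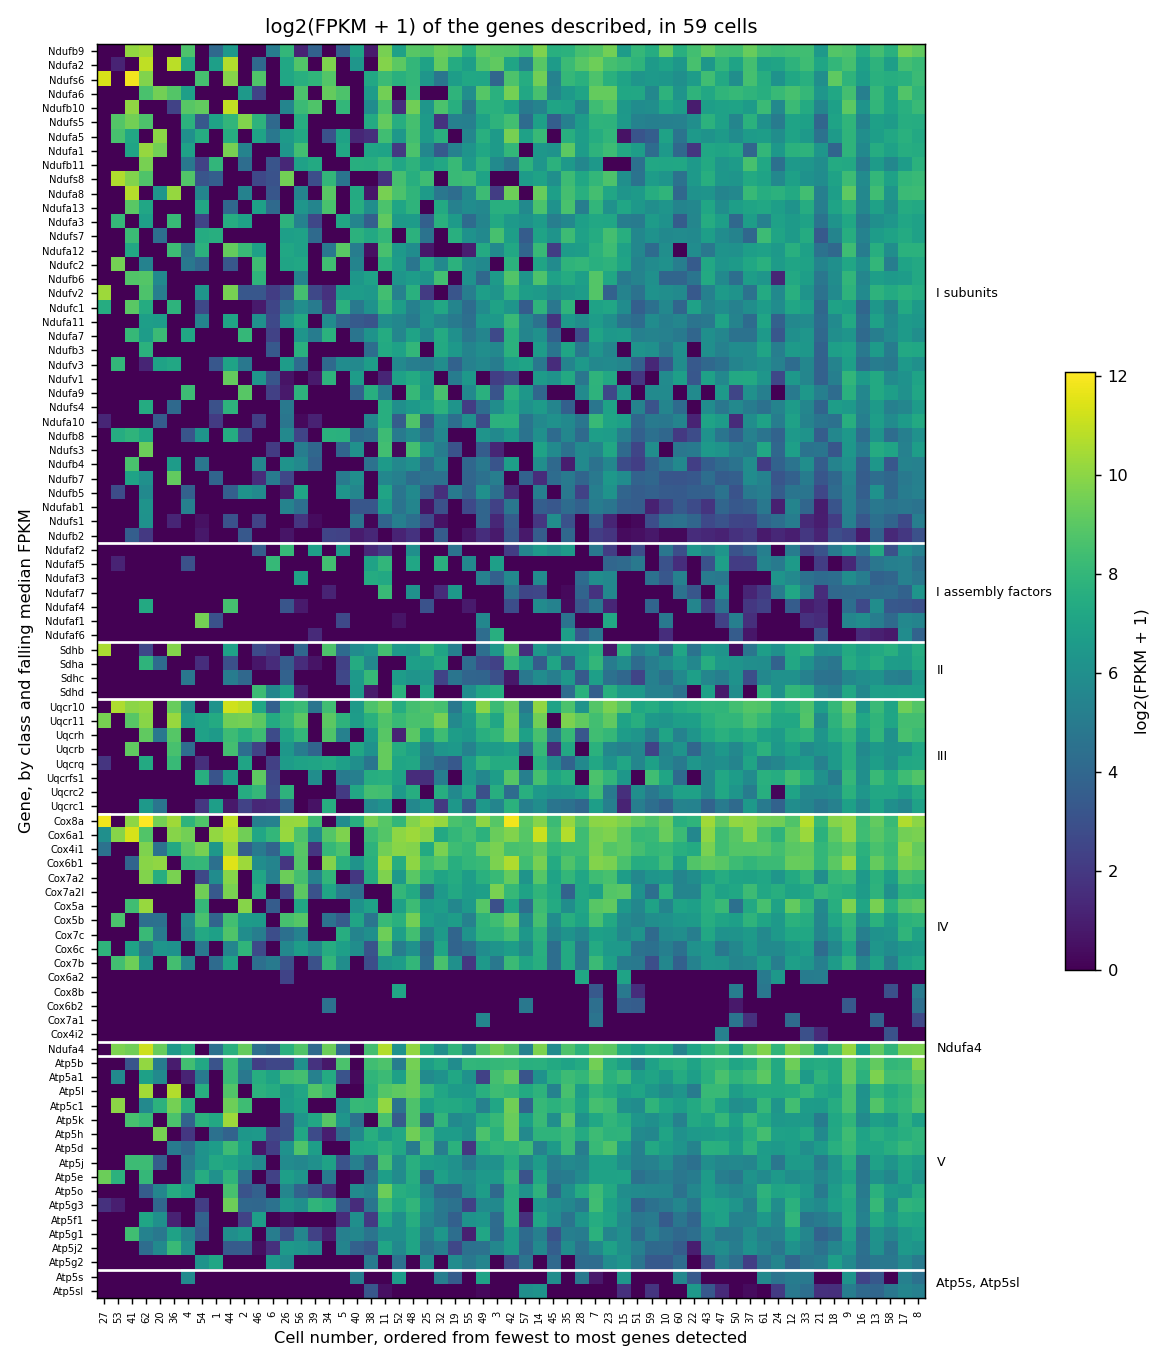
log2(FPKM + 1), by colour, of the genes described (rows, by class and falling median) in the 59 cells (columns, from fewest to most genes detected). Cells at the left have 475 or slightly more detected genes and many zeros beside single very high values, and the rows of Cox6a2, Cox8b, Cox6b2, Cox7a1 and Cox4i2 are at 0 in most columns.

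The highest values of many genes were reached in a few cells with few detected genes. Cell 44 held the highest value of 12 of the 89 genes, cells 11 and 62 of 11 each, and cell 41 of 8. Cell 44 had 1683 detected genes, cell 62 1074 and cell 41 907, against a median of 3984 over the cells, while cell 11 had 3123. Ndufs6 shows the pattern: its highest value of 3760 FPKM was in cell 41, where 32 of the 89 genes were detected. The cells with the highest values of all other genes were not counted, so the pattern is not shown to be particular to this set.

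Cells in which the neuronal list led had a higher median share of nuclear subunit RNA than the other classes. Mitochondrially encoded RNA is not in this share but is in the sum that divides it, of which it made up 0.737 to 42.6% over the cells. A share by class without it is not given here. The subunit share of summed FPKM had a median of 3.59% (0.633 to 6.89%) in the 21 cells in which the neuronal list led, and of 1.71% (0.296 to 4.61%) in the 28 in which the oligodendrocyte list led. It was 1.75% (0.820 to 2.85%) in the 8 cells led by the microglia list, and 1.30 and 2.21% in the 2 led by the astrocyte list. The ranges overlap, and all 5 of the highest shares (cells 44, 62, 42, 11 and 48) were in cells led by the neuronal list. The strength of the neuronal list did not fix the share: its mean log2 was 2.42 in cell 62 and 0 in cell 41, which had shares of 6.20 and 4.61%, and 5.22 in cell 39, which had 0.633%. As a mean log2 level the medians were closer, at 5.62 in the neuronal, 4.88 in the oligodendrocyte, 5.48 in the microglia and 5.34 in the astrocyte class, with SDs of 1.62, 1.55, 0.85 and 0.94. Without mitochondrial and ribosomal RNA genes in the scaling, the neuronal and the astrocyte class both had a median of 7.25. Depth differed little between the larger classes, with medians of 804772 fragments in the neuronal and 926049 in the oligodendrocyte class, and the median number of genes was 3252 and 4226.

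Across the 59 cells, the subunit mean had a rho of 0.740 with the neuronal list, -0.065 with the oligodendrocyte list, 0.458 with the astrocyte list and 0.349 with the microglia list. It also rose with the number of genes detected (0.725) and with depth (0.473). After each cell's mean over the 8042 genes detected in at least 12 cells was subtracted from both sides, rho was 0.461 for the neuronal list, -0.317 for the oligodendrocyte, 0.111 for the astrocyte and 0.080 for the microglia list. Taken singly, 74 of the 75 subunits detected in at least 12 cells had a positive rho with the neuronal list (median 0.445), against 89.5% of all 8028 genes so filtered and outside the list (median 0.278). The highest was Uqcrfs1 with 0.655, and the exception was Ndufs8 with -0.010. With the oligodendrocyte list, 22 of the 75 had a positive rho (median -0.085), against 70.9% of 8032 genes (median 0.087). These shares are descriptions, and the genes share the cells and their depth.

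**Figure D5:**
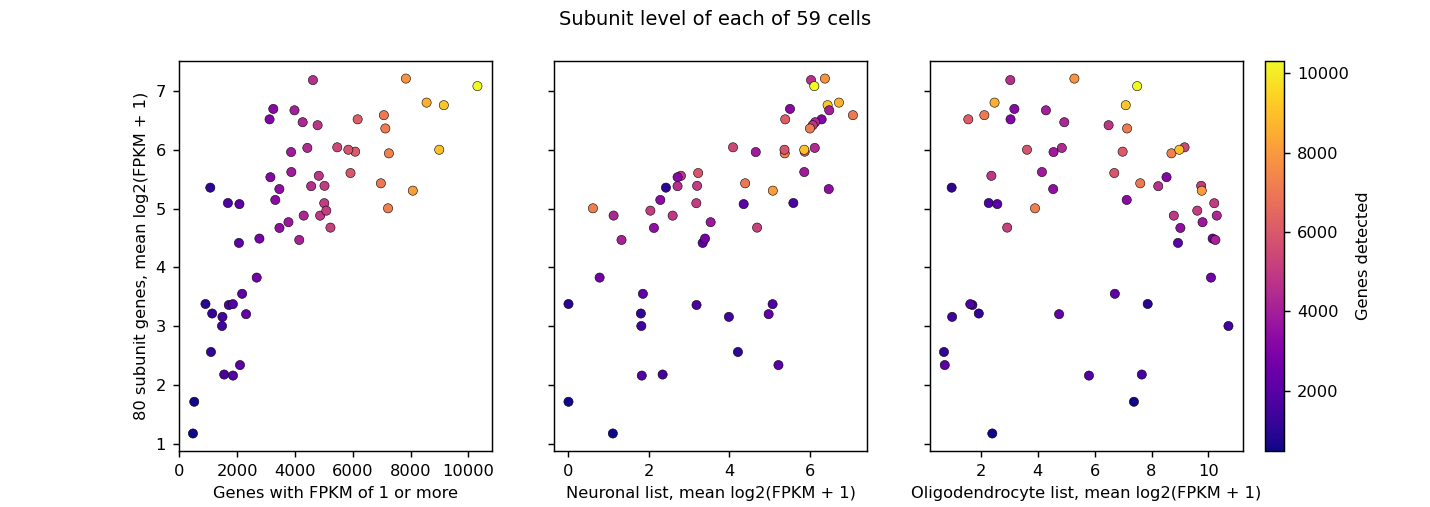
Mean log2(FPKM + 1) of the 80 subunits in each of 59 cells (y) against the number of genes detected, the mean of the neuronal list and the mean of the oligodendrocyte list (x, left to right), coloured by the number of genes detected. The values of rho are 0.725, 0.740 and -0.065, and cells with few detected genes lie lowest.

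Pairs of subunits varied together more than pairs of genes at large, and no more within a complex than between complexes. The median Spearman rho over the 59 cells was 0.324 for 824 pairs within a complex and 0.336 for 1951 pairs between complexes, and 0.222 for all pairs of 8042 genes, or 0.216 for those of the 2413 genes detected in at least 50% of cells. With each cell's mean subtracted, the medians were 0.198, 0.199 and 0.029. By complex, complex V had a median of 0.381, complex IV of 0.370, complex III of 0.343 and complex I of 0.315. The highest pairs were Uqcrh with Cox7a2 (0.809), Cox4i1 with Cox7c (0.800) and Atp5g3 with Atp5a1 (0.727). The lowest was Cox6c with Atp5g2 (-0.344). All points share libraries and depth, and most of these values are weak.

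The subunits were slightly less variable across cells than genes of a like mean. The SD of log2(FPKM + 1) lay below a running median over genes ordered by mean level for 50 of the 75 subunits detected in at least 12 cells, where 49.9% of all such genes lay below, and the median deviation was -0.18. The least variable for their level were Atp5g1 (-1.01), Atp5j (-0.999), Cox6c (-0.98) and Atp5j2 (-0.84), and the most variable Ndufa6 (0.55), Sdhd (0.50), Cox5a (0.50) and Ndufb9 (0.47). The deviation moved with the length ratio: its rho with the ratio was -0.727 over the 75 subunits. For the 18 subunits with a ratio over 3 the median deviation was -0.58 and all 18 lay below the trend, whereas for the 25 with a ratio of at most 1.2 it was 0.17 and 10 lay below. The part of the exon length in the spread was not tested further.

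Other genes of the pathway were described from lists of textbook members. Of 10 genes for electron carriers and their synthesis, 4 passed the share of 50% of cells, most often Cycs, cytochrome c (48 cells), and Cyc1, the cytochrome subunit of complex III that the naming rule does not take (40 cells), and least often Etfdh (10) and Coq10a (18). Of 32 assembly factors of the complexes outside the Ndufaf genes, 4 passed that share, which 11.7% of all genes passed. Their median detection was 28.8% of the cells, against 11.9% for all genes, and Cox14 (47 cells) and Uqcc2 (43) were the most and Cox17 (4) and Nubpl (5) the least detected. The ATPase inhibitor Atpif1, which blocks the reverse action of complex V, was found in 48 cells at a median of 52.2 FPKM.

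Of 15 citric acid cycle genes, 13 passed the share of 50% of cells, with Mdh2 (51 cells) the most and Suclg2 (7) and Dlst (29) the least detected. All 13 genes for carriers and import passed, led by Chchd2 and the ADP/ATP carrier Slc25a4 (55 cells each), with Timm8b (44) and Tomm22 (38) the least. None of the 9 regulators of mitochondrial biogenesis passed, a share that 11.7% of all genes passed. Their median detection was 18.6% of the cells, against 11.9% for all genes. Ppargc1a was detected in 21 cells and Tfam, which packages mitochondrial DNA, in 20, while Polrmt was found in 8 and Nrf1 in 7. Of 16 glycolysis genes 14 passed, led by Pkm and Gapdh (57 cells each), with Pfkm (29) and Pfkp (27) the least. The subunit mean followed the glycolysis list with a rho of 0.915 (0.769 with each cell's mean subtracted), the citric acid cycle list with 0.896 (0.659) and the carriers with 0.896 (0.711).

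The mean level of the mitochondrially encoded partners rose moderately with that of the nuclear subunits. Over the 13 mitochondrial protein genes, rho with the nuclear subunit mean was 0.431, and 0.222 with each cell's mean subtracted. Mt-Cytb of complex III had a median of 6002 FPKM, mt-Co1 of complex IV 3950 and mt-Nd1 of complex I 3082, each in 59 cells. In contrast, mt-Co2, mt-Co3, mt-Atp6 and mt-Atp8 had a median of 0 and at most 10.1 FPKM in any cell. Mt-Nd3 (4 cells) and mt-Nd4l (10 cells) also had a median of 0, with highest values of 999 and 179 FPKM. All of these genes are in the mean behind rho, and a rho without them is not given here. Whether reads with several matches in the genome were counted is not given in the sources used here, and its part in these zeros was not tested.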

How the data were processed

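The deposited table gives FPKM per gene and cell, computed by the authors. Per the submitters' processing notes, the tools included STAR 2.5.3a and featureCounts 1.5.3, and the build was GRCm38. The annotation release, the strand setting and the handling of reads with several matches are not stated in the labels. The values are normalized and not counts, so no count model was run. The 51 ERCC spike-ins were left out, which leaves 20689 genes.

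Detection was an FPKM of 1 or more, and log2 values carry a pseudocount of 1. Depth per cell was recovered from the spacing of FPKM times exon length for 19358 genes with GENCODE M21 lengths, with a median of 73.4% of values up to 20 fragments whole within 0.02, and the recovered depth limits what can be detected. Motif letters were shortened after longer forms had been searched. Transcripts were compared with all GENCODE M21 transcripts by BLAST+ 2.17.0. Other steps used Python 3.11.15, numpy 2.4.6, pandas 2.3.3, scipy 1.17.1 and matplotlib 3.10.9. The recovery of depth, the spread for a level and the co-variation were tested on simulated data. The recovery of exon length was not part of that test.

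The genes and lists were chosen with earlier results of these data known. Genes are named by a rule: all of complex II, the 4 highest and 3 lowest medians of each other class, isoform pairs, core subunits of complex I, the 4 largest and 4 smallest spreads, the 3 closest pairs, and from each other list the 2 most and 2 least detected. A few genes that the rule takes are not reported here. Other named genes were chosen after their values were seen. Alternatives were other detection thresholds, pseudocounts, scalings, list medians, filters and cell sets. Cells with at least 500000 fragments, principal transcript lengths and complex IV without 5 isoforms were added after seeing the data.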

Additional observations from a re-analysis of the deposited data

How the results depend on the processing

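The 45 results were recomputed under the alternatives, giving 347 values, of which 312 stayed within the limits set for a change, 35 moved and 0 reversed a called direction. The difference of complex IV from complex I changed sign, to 2.01 with only members detected in at least 12 cells, to 0.31 with a pseudocount of 10 and to 0.56 with list medians, and the share of cells with complex IV higher was 30.5% with a pseudocount of 0.1, 79.7% with 10, 71.2% with list medians, 100% with members detected in at least 12 cells and 33.3% in the 39 cells with at least 500000 fragments. Complex IV minus complex II was 2.35 with members detected in at least 12 cells, with 96.6% of cells higher, against 52.5% with a pseudocount of 0.1. Complex I minus its assembly factors was 4.18 with a pseudocount of 0.1 and 1.64 with 10, and list medians put complex I above them in 84.7% and above complex II in 50.8% of cells. In the 46 cells with at least 2000 genes, complex V was above complex I in 97.8% and the median detection of the genes was 91.3%. Without mitochondrial and ribosomal RNA genes the subunit share was 3.99%, and the subunit mean had medians of 7.25, 6.58, 6.83 and 7.25 in the neuronal, oligodendrocyte, microglia and astrocyte classes, and rescaling all genes gave 6.44 for microglia and 6.45 for astrocytes. The rho of the subunit mean with genes detected fell to 0.546 in cells with at least 2000 genes and 0.577 with list medians. In those cells it was 0.215 for mitochondrially encoded genes, -0.401 for the oligodendrocyte, 0.318 for the astrocyte and 0.036 for the microglia list, and in cells with at least 500000 fragments 0.221, -0.298, 0.246 and 0.082. The astrocyte value was 0.287 with list medians, and the oligodendrocyte value 0.019 with a pseudocount of 0.1. The causes of these shifts were not tested, beyond the fewer genes or cells that some alternatives keep.

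No paired analysis was possible because the cells form 1 group. Low depth limits the rare isoforms, and in many cells 1 fragment passes the detection threshold. A gene at 0 was not detected and is not shown to be absent, whatever the depth of the cell.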
